A study of Mus musculus with 12 samples.

Results

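Transcript levels of 10 genes of the Notch pathway were followed in the tibialis anterior, a fast muscle of the lower hindlimb, of mice lacking the muscle methyltransferase SMYD1 in their myofibers. The 10 genes were chosen by name for their place in the pathway, out of 23923 genes listed, with earlier results of these data known. The further gene and marker lists below were also set with those results known. They were the receptors Notch1, Notch2 and Notch3, the ligands Dll1, Dll4 and Jag1, the DNA-binding factor Rbpj, and the target genes Hes1, Hey1 and Heyl. All 10 were found, and all 10 passed the filter on low values, which kept the 12695 genes whose FPKM reached 0.1 in 6 or more of the 12 libraries. No member was listed at 0 FPKM in any library, so none passed through 1 group alone.

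RNA was sequenced from 6 control mice and 6 Smyd1 CKO mice aged 6 weeks, with 1 library per mouse, on a mixed C57BL6/J and 129S1/SvImJ background. Controls were Myf6 cre/+; Smyd1 flox/+, and CKOs were Myf6 cre/+; Smyd1 flox/-. Both groups thus carried the Cre allele, and per the study's methods both also carried 1 copy of a Rosa26 YFP reporter. Cre was translated from the Myf6 transcript through an internal ribosome entry site, and Myf6 is a myogenic factor of differentiated myofibers. Deletion was therefore aimed at myofibers, while the sequenced muscle also held vessels, nerve, connective tissue and satellite cells. The minus allele of the CKOs was inherited and not made by Myf6 cre, so outside myofibers the groups also differed by 1 Smyd1 allele. The labels give no sex for the sequenced mice, and the paper states that its later experiments, which include the RNA-seq, used male tissue.

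Notch signaling passes between cells that touch. A Delta or Jagged ligand on one cell binds a Notch receptor on its neighbor, the receptor is cut by an ADAM protease and by gamma-secretase, and the freed intracellular domain moves to the nucleus. There it joins RBPJ and a Mastermind coactivator, and genes of the Hes and Hey families, which encode transcriptional repressors, are switched on. In skeletal muscle the pathway is known for holding satellite cells, the resident stem cells, in quiescence, and for its roles in endothelial cells and in the mural cells that wrap vessels.

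RBPJ binds DNA at a core of the letters TGGGAA. This core was searched on both strands, the other strand reading TTCCCA, in RefSeq promoters of 250 bases before to 50 bases after a start site (GRCm38.p6). Promoters were at hand for 7 members in 9 windows, namely for Notch1, Notch2, Notch3, Dll1, Dll4, Jag1 and Rbpj. Hes1, Hey1 and Heyl had no entry in the promoter table. Of all 32851 promoters of this length, 25.6% held the core. Among the members 2 of the 9 windows did, both of them of Rbpj, so 1 of the 7 genes. These 2 windows overlap, and the only match in the second is also a match in the first. The bases before the first Rbpj start site are shown because they carry the core, in capitals, at 149 bases before the start on the strand of the gene and at 65 bases before it on the other strand. Those before the Dll1 start site are shown for comparison, since Dll1 had the largest difference between the groups among the 10 members, and they hold no core. The Rbpj stretch lies on the plus strand at chr5:53590096-53590345, and the Dll1 stretch on the minus strand at chr17:15376933-15377182, both upstream of the transcript and written 5′ to 3′.
Rbpj: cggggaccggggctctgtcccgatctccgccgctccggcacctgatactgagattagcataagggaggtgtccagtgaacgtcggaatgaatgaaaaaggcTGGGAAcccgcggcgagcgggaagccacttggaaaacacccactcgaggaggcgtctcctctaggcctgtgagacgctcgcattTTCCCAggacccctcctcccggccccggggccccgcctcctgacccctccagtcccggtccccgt
Dll1: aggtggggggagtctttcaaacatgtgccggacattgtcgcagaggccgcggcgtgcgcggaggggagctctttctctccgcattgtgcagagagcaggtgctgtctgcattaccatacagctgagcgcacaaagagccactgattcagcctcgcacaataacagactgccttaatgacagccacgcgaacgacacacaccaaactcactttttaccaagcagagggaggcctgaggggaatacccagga
A match describes the letters only, and binding was not measured in these mice.

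The libraries were checked before the comparison. Depth, read from the steps between low FPKM values, lay between about 10600000 and 19100000 fragments per library, with a median relative to control 1 of 1.192 in controls and 1.24 in CKOs. The muscle fiber markers summed to at least 16890 FPKM in every library. Smyd1, the targeted gene, read 33.0 to 47.1 FPKM in controls (median 34.9) and 27.8 to 39.9 FPKM in CKOs (median 33.5), a log2 difference of -0.13 ± 0.12 (SE, limma, adjusted P = 0.545). The groups overlapped in Smyd1, with 3 CKOs below all controls. After median-ratio scaling the log2 difference was -0.32 (limma, 95% interval -0.49 to -0.14, unadjusted P = 0.0018, adjusted P = 0.0797). After quantile normalization it was -0.23 (limma, unadjusted P = 0.0090). In its western blots the paper could not detect SMYD1 protein in the CKO tibialis anterior. The FPKM is taken over the whole gene and the excised part is not stated, so the values do not check the labels, and every direction below is that of the libraries labelled CKO and control. Control 1 stood apart in fibroblast, macrophage and tendon markers, and was also the highest control in mural, satellite cell and muscle fiber markers. Its tendon markers summed to 55.0 FPKM against 16.5 to 28.9 in the other controls. Mural markers in control 1 summed to 123.9 FPKM against 84.1 to 108.8, and satellite cell markers to 17.2 FPKM against 8.67 to 14.2. Its endothelial and Schwann cell markers lay within the range of the other controls. Its fibroblast markers summed to 715.5 FPKM against 192.0 to 239.3 in the other controls, and its macrophage markers to 16.1 FPKM against 5.39 to 7.64. The main differences of Dll1, Notch1 and Notch2 are therefore also given without it.

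Across the genes tested the CKO libraries read slightly higher. The median log2 difference, CKO minus control, was 0.18, and 77.9% of genes were above 0. Limma gave an adjusted P below 0.05 to 2.02% of genes in the higher direction and to 0.268% in the lower direction. At an unadjusted P below 0.05, the cutoff the study states, the shares were 18.1% higher and 1.76% lower, or 2300 against 224 genes. The study's own test at that cutoff, DESeq on counts, listed similar numbers of genes as higher and as lower, unlike this split. Median-ratio scaling, which lines up the typical gene, took the median to 0.0079 and the unadjusted counts to 841 higher and 944 lower, and quantile normalization gave 810 and 837. At the adjusted threshold the split was 257 higher and 34 lower as deposited, 97 and 90 after median-ratio scaling, and 101 and 68 after quantile normalization. The member differences below are therefore given as deposited and after scaling.

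None of the 10 members passed the adjusted threshold in limma. At the unadjusted threshold 2 were higher, Dll1 and Notch1, and none was lower, which is close to the 18.1% of all genes that were higher. After median-ratio scaling and after quantile normalization no member passed either threshold. The median log2 difference of the members was 0.27, with 8 of 10 above 0, beside 0.18 over all genes, and after median-ratio scaling it was 0.098 with 6 above 0. In no member did all CKO values lie above or below all control values. Over all genes tested, 2.23% had all CKOs above all controls and 0.189% had all below. Without control 1 the members past the unadjusted threshold were again 2, this time Dll1 and Notch2. In that fit 3428 of the 12695 genes tested were higher at that threshold, against 2300 in the main fit.

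**Figure D1:**
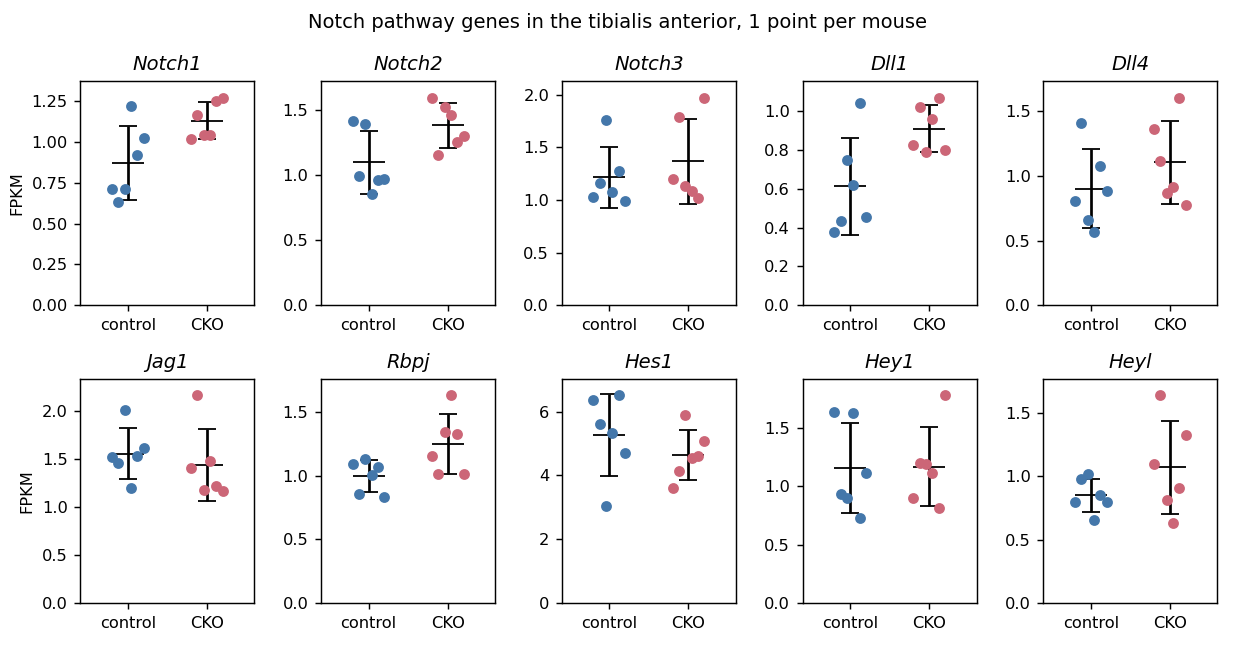
FPKM of the 10 Notch pathway genes, 1 panel per gene with its own linear axis from 0; points are mice (blue control, red CKO, 6 each), the horizontal bar is the mean and the whiskers are the SD. The groups overlapped in every gene; Dll1 and Notch1 show the CKO points gathered in the upper part of the control range, and the mean difference of Notch3 and Hey1 changed sign after median-ratio scaling and quantile normalization.

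Among the receptors, Notch1, the receptor best known for satellite cell maintenance, read 0.71, 0.63, 0.71, 1.22, 0.92 and 1.03 FPKM in controls 1 to 6. In CKOs 1 to 6 it read 1.02, 1.16, 1.04, 1.04, 1.25 and 1.27 FPKM. The CKO values lay close together in the upper part of the control range, with 2 above all controls and 4 controls below every CKO. The means were 0.871 ± 0.227 and 1.13 ± 0.113 FPKM (SD, n = 6), and the log2 difference was 0.37 ± 0.16 (SE, limma, 95% interval 0.024 to 0.72, adjusted P = 0.222). After subtraction of the median of all genes it was 0.19, and after median-ratio scaling 0.20 (adjusted P = 0.687). Leaving out control 1, 2 or 3, or CKO 2, 5 or 6, took Notch1 above the unadjusted threshold, with log2 differences from 0.30 without control 2 to 0.36 without CKO 2, and of 0.32 without control 1 (adjusted P = 0.213).

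Notch2, a receptor that is also found on satellite cells, read 1.42, 0.99, 1.39, 0.85, 0.96 and 0.97 FPKM in controls and 1.59, 1.16, 1.52, 1.46, 1.25 and 1.30 FPKM in CKOs. Controls 1 and 3 lay among the CKOs, and the other 4 controls lay below every CKO. The log2 difference of 0.32 ± 0.15 (SE, limma, 95% interval -0.00083 to 0.65, adjusted P = 0.252) was just short of the unadjusted threshold, and it was 0.15 after median-ratio scaling (adjusted P = 0.664). It passed that threshold without control 1 (0.40), control 3 (0.39), CKO 2 (0.37) or CKO 5 (0.35), with adjusted P from 0.0989 to 0.235.

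Notch3, the receptor typical of smooth muscle cells and pericytes, ran from 0.991 to 1.76 FPKM in controls (median 1.12) and from 1.02 to 1.97 FPKM in CKOs (median 1.17). CKO 2 and CKO 6 were the highest of all 12 libraries, while the other 4 CKOs lay within the control range. Its log2 difference was 0.14 ± 0.19 as deposited (SE, limma, 95% interval -0.26 to 0.54, adjusted P = 0.701) and turned to -0.034 after median-ratio scaling and -0.066 after quantile normalization. Notch4, the endothelial receptor outside the 10, read 0.698 ± 0.272 FPKM in controls and 0.640 ± 0.109 in CKOs (SD, n = 6), a log2 difference of -0.036 (limma, adjusted P = 0.952).

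Among the ligands, Dll1, a Delta ligand needed to keep muscle progenitors undifferentiated in the embryo, was the lowest of the 10 genes in both groups. It read 0.38, 0.43, 0.75, 0.62, 1.04 and 0.46 FPKM in controls 1 to 6. It read 0.82, 1.02, 0.79, 0.96, 1.07 and 0.80 FPKM in CKOs 1 to 6. Of the controls, 5 lay below every CKO, and control 5 lay among the CKOs, below only CKO 5. The means were 0.613 ± 0.250 and 0.911 ± 0.122 FPKM (SD, n = 6), and the log2 difference of 0.56 ± 0.21 (SE, limma, 95% interval 0.12 to 1.005, adjusted P = 0.155) was the largest of the 10. It stayed below an unadjusted P of 0.05 in 12 of 12 fits that left out 1 library, between 0.46 and 0.71, and was 0.46 without control 1 (adjusted P = 0.148). With sample weights the log2 difference was 0.39 and did not pass the unadjusted threshold (limma, unadjusted P = 0.0706). After median-ratio scaling the log2 difference of Dll1 was 0.40 (adjusted P = 0.446) and after quantile normalization 0.33 (adjusted P = 0.585). These values rest on few fragments, 14 to 49 per control library and 35 to 55 per CKO library.

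Dll4, the Delta ligand of endothelial cells, ran from 0.568 to 1.41 FPKM in controls (median 0.844) and from 0.772 to 1.61 FPKM in CKOs (median 1.02). Only CKO 5 lay above all controls. The log2 difference was 0.28 ± 0.22 (SE, limma, 95% interval -0.18 to 0.75, adjusted P = 0.474) and was 0.11 after median-ratio scaling.

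Jag1, a ligand of the Jagged type found on endothelium and elsewhere, ran from 1.196 to 2.02 FPKM in controls (median 1.53) and from 1.17 to 2.16 FPKM in CKOs (median 1.31). CKO 2 was the highest library and CKO 3 and CKO 6 were the lowest, so the CKO values enclosed the control range. Jag1 was 1 of the 2 members with a negative difference as deposited, -0.12 ± 0.16 (SE, limma, 95% interval -0.48 to 0.23, adjusted P = 0.695) on the log2 scale, and it was -0.30 after median-ratio scaling (adjusted P = 0.463).

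Rbpj, which encodes the DNA-binding partner of the cut receptors, read 1.09, 0.85, 1.13, 1.01, 1.07 and 0.84 FPKM in controls and 1.15, 1.01, 1.34, 1.63, 1.33 and 1.01 FPKM in CKOs. CKOs 1, 3, 4 and 5 lay above all controls, and CKOs 2 and 6 lay within the control range. The log2 difference was 0.28 ± 0.15 (SE, limma, 95% interval -0.029 to 0.60, adjusted P = 0.294), above the unadjusted threshold, and was 0.11 after median-ratio scaling (adjusted P = 0.791). Without CKO 2 or CKO 6 Rbpj passed the unadjusted threshold, at 0.34 in each case (adjusted P = 0.237 and adjusted P = 0.285).

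Among the target genes, Hes1, a bHLH repressor induced by Notch in many tissues, was the most abundant member in both groups. It read 6.38, 5.62, 3.03, 5.35, 6.52 and 4.72 FPKM in controls and 3.61, 4.13, 5.89, 4.53, 4.601 and 5.08 FPKM in CKOs. The groups overlapped, and control 3 was the lowest of all libraries. Its log2 difference was negative, -0.16 ± 0.17 as deposited (SE, limma, 95% interval -0.52 to 0.21, adjusted P = 0.635) and -0.34 after median-ratio scaling (adjusted P = 0.438). Without control 3 it was -0.30 and passed the unadjusted threshold (adjusted P = 0.230).

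Hey1, a Hey family repressor, ran from 0.726 to 1.64 FPKM in controls (median 1.03) and from 0.810 to 1.78 FPKM in CKOs (median 1.15), with means of 1.156 and 1.166 FPKM. The control values fell into 2 libraries near 1.6 and 4 between 0.726 and 1.12, and CKO 6 was the highest library. Its log2 difference of 0.029 ± 0.22 (SE, limma, 95% interval -0.44 to 0.49, adjusted P = 0.957) became -0.14 after median-ratio scaling and -0.18 after quantile normalization. It also changed sign without control 2, 3 or 5 or CKO 6, to values between -0.093 and -0.016.

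Heyl, a Hey family gene also known from mural cells, ran from 0.659 to 1.02 FPKM in controls (median 0.823) and from 0.633 to 1.64 FPKM in CKOs (median 1.005). The CKO spread was the wider one, with CKOs 1, 2 and 6 above all controls and CKO 4 below all of them. The log2 difference was 0.26 ± 0.20 (SE, limma, 95% interval -0.17 to 0.68, adjusted P = 0.477) and was 0.086 after median-ratio scaling.

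**Figure D2:**
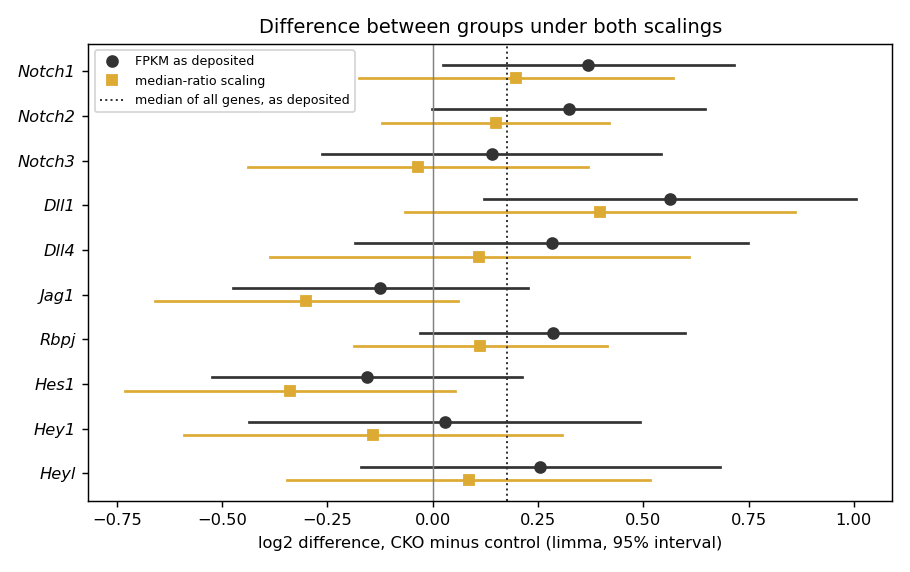
Log2 difference of log2(FPKM + 0.1), CKO minus control, for the 10 genes with 95% intervals from limma, as deposited (black circles) and after median-ratio scaling (yellow squares); the dotted line is the median of all genes as deposited, 0.18. As deposited, the intervals of Dll1 and Notch1 lie above 0; after scaling all 10 intervals cross 0, and Notch3 and Hey1 move from above to below 0.

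The members were also compared with each other within libraries, where scaling cancels. Of 9 ratios between members of the same role, Dll1 over Jag1 differed most between the groups. Its log2 value was -1.27 ± 0.49 in controls and -0.58 ± 0.28 in CKOs (SD, n = 6), a difference of 0.69 (exact permutation test over all assignments of 12 libraries to 6 and 6, two-sided, P = 0.0216, adjusted over the 9 ratios P = 0.195). In controls the ratio ran from -1.76 to -0.52 and in CKOs from -1.01 to -0.17, with 2 CKOs above all controls. The size of its difference depended on the value added, at 0.33 with 1 FPKM and 0.78 with 0.01 FPKM (exact permutation test, adjusted P = 0.175 and adjusted P = 0.195). The other 8 ratios had exact permutation P from 0.173 to 0.905, with adjusted P of at least 0.553. Notch1 over Notch2 had the smallest difference, 0.047 on the log2 scale (exact permutation P = 0.905), with -0.31 ± 0.56 in controls and -0.26 ± 0.28 in CKOs (SD, n = 6), and leaving out 1 library took it below 0 in 6 cases. Dll4 over Jag1 differed by 0.41 and Hes1 over Heyl by -0.41, with exact permutation P of 0.173 and 0.225.

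FPKM are per transcript length, so the levels of different genes can be ranked. In controls the mean FPKM ran from 5.27 for Hes1 through 1.56 for Jag1, 1.22 for Notch3, 1.16 for Hey1, 1.097 for Notch2, 0.997 for Rbpj, 0.900 for Dll4, 0.871 for Notch1 and 0.850 for Heyl to 0.613 for Dll1. Hes1 exceeded Jag1 in 6 of 6 control mice and Jag1 exceeded Notch3 in 6 of 6 (exact sign-flip permutation test, P = 0.03125 for each, the smallest that 6 mice allow, adjusted over 9 neighbor pairs P = 0.141). The pairs and their direction were set by the means of these same mice, so the tests are no independent check of the order. In CKOs Hes1 stood above Jag1 by 1.64 on the log2 scale (exact sign-flip permutation P = 0.03125). There Jag1 stood above Notch3 by 0.078 (exact sign-flip permutation P = 0.6875), against 0.34 in controls. Heyl exceeded Dll1 in 5 of 6 control mice (exact sign-flip permutation P = 0.0938). The other 6 neighbor pairs, from Notch3 down to Heyl, did not differ beyond their spread, with exact permutation P between 0.312 and 1.0. In CKOs the order was Hes1, Jag1, Notch2, Notch3, Rbpj, Hey1, Notch1, Dll4, Heyl and Dll1, so the top pair and the bottom pair kept their places, and of the 9 neighbor pairs Hey1 and Notch2 as well as Dll4 and Notch1 traded order.

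The number of fragments behind each value differed between members. Whole fragments could be read back from the FPKM for 8 members, all but Rbpj and Dll4. Notch2 was covered by 105 to 199 fragments per control library and 140 to 320 per CKO library, and Notch1 by 73 to 162 and 126 to 185. Hey1 was covered by 22 to 42 and 19 to 50. Counting alone would give Notch1 a coefficient of variation (CV, SD over mean) of 8.3% in CKOs, beside an observed CV of 9.9% between mice, and in controls the observed CV was 26.0%. For Dll1 the counting CV was 20.6% in controls and 15.4% in CKOs, beside observed CVs of 40.8% and 13.4%. In CKOs the mice thus spread about as much as counting alone gives in Notch1 and Dll1, and in controls more. Heyl showed the reverse, with 15.7% in controls and 34.3% in CKOs beside counting CVs of 14.4% and 12.8%. Whether these spreads differ between the groups was not tested. A fit on the whole fragments with voom, chosen after seeing the data, gave 3 of the 8 members an unadjusted P below 0.05 and none an adjusted one, with log2 differences of 0.62 for Dll1 (adjusted P = 0.135), 0.39 for Notch1 and 0.36 for Notch2 (adjusted P = 0.157 for both). In that fit 1700 of 8779 genes were higher at an unadjusted P below 0.05. Its median log2 difference was 0.21 over all these genes and 0.19 over the 8 members.

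**Figure D3:**
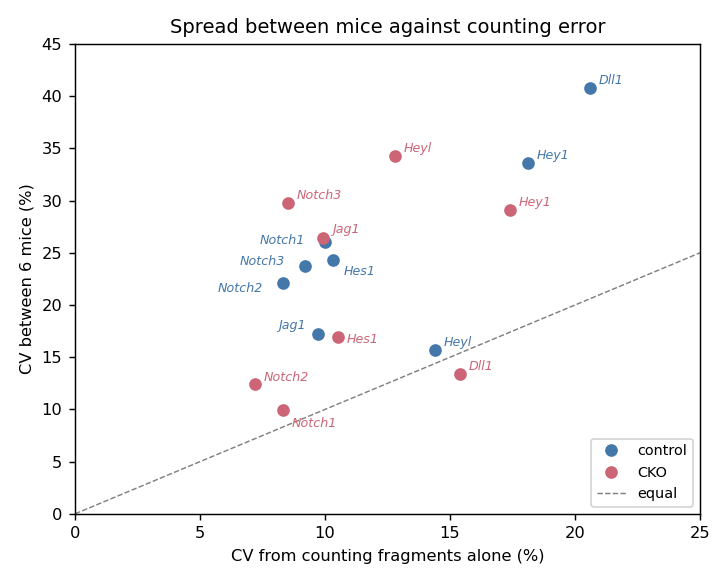
Coefficient of variation between 6 mice (y axis, %) against that from counting fragments alone (x axis, %) for the 8 members with whole fragments, 1 point per gene and group (blue control, red CKO); the dashed line marks equal values. Dll1 and Hey1 lie furthest right, above 15%, and only Dll1 in CKOs lies below the line.

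Notch genes are expressed by several cell types of muscle, and in bulk tissue fewer cells of a type and less RNA per cell cannot be told apart. Markers of those types were therefore read beside the members. Satellite cell markers, such as Pax7, had the highest median difference among the 8 lists, as deposited and after median-ratio scaling. Their 8 genes summed to 8.67 to 17.2 FPKM in controls (median 12.3) and 13.1 to 22.2 FPKM in CKOs (median 16.4), and 6 of 8 were higher in CKOs at an unadjusted limma P below 0.05, none at the adjusted threshold, beside 18.1% of all genes higher at the unadjusted one. The median log2 difference of the list was 0.60, and 0.45 after median-ratio scaling. Schwann cell markers summed to 11.4 to 15.9 and 13.5 to 20.9 FPKM, with 3 of 6 higher at the unadjusted threshold and a median log2 difference of 0.36, which was 0.18 after median-ratio scaling. Fibroblast markers summed to 192.0 to 715.5 and 258.2 to 430.2 FPKM, with 2 of 7 higher and a median log2 difference of 0.34, which was 0.15 after median-ratio scaling. Endothelial markers summed to 43.6 to 56.5 and 44.7 to 64.8 FPKM with 0 of 10 past the unadjusted threshold, and mural markers to 84.1 to 123.9 and 86.6 to 111.3 FPKM with 1 of 10 higher, both with median log2 differences as deposited of 0.013 and 0.044 and after scaling of -0.17 and -0.14. Macrophage markers summed to 5.39 to 16.1 and 5.16 to 11.8 FPKM with 0 of 6 past the unadjusted threshold. Tendon markers summed to 16.5 to 55.0 and 14.3 to 32.8 FPKM with 1 of 5 lower. Of the muscle fiber markers, 2 of 7 were higher and 1 lower. No marker was at 0 throughout a group. The part of these markers in the differences of Notch1, Notch2, Dll1 and the other members was not tested.

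A further 59 genes of the pathway were read from the same fit, of which 51 passed the filter. Limma gave 16 of the 51 a higher value in CKOs at an unadjusted P below 0.05 and 1 a lower one, beside 18.1% and 1.76% of all genes. At the adjusted threshold 1 was higher and none lower, beside 2.02% and 0.268%. The median log2 difference was 0.22, with 42 of 51 above 0, beside 0.18 and 77.9% over all genes. After median-ratio scaling the median was 0.064, with 4 genes higher and 1 gene lower at an unadjusted P below 0.05, and quantile normalization gave 0.020, 3 and 1. The number higher at the unadjusted threshold ran from 9 without control 2 and 10 without control 6 or CKO 6 to 18 without control 1. Over all genes tested it was 1786 without control 2 and 3428 without control 1, against 2300 in the main fit.

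Kat2b, an acetyltransferase that serves as a coactivator of the Notch complex, was the gene past the adjusted threshold. It ran from 8.14 to 9.85 FPKM in controls and from 9.24 to 15.3 FPKM in CKOs, with 5 CKOs above all controls, and its log2 difference was 0.49 ± 0.11 (SE, limma, adjusted P = 0.0369). After median-ratio scaling it was 0.31 (adjusted P = 0.168). The number of these genes past the adjusted threshold was 0 without control 2, 4, 5 or 6 or CKO 1, 3, 4 or 6, was 2 without CKO 2, and was 4 without control 1. Over all genes tested, higher calls at the adjusted threshold numbered 300 without CKO 2 and 1067 without control 1.

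Among the nuclear partners, the Mastermind coactivators Maml2 and Maml3 had log2 differences of 0.53 and 0.48. In Maml3 all CKOs, 0.534 to 0.735 FPKM, lay above all controls, 0.288 to 0.526. The corepressors Ctbp1 and Tle1 had 0.29 and 0.34, and in Ctbp1 the groups did not overlap, with 12.4 to 14.0 FPKM in controls and 14.3 to 21.7 in CKOs. All 4 of these genes missed the adjusted threshold, with adjusted P from 0.105 to 0.217. After median-ratio scaling the log2 difference was 0.37 for Maml2, which stayed past the unadjusted threshold, while 0.32 for Maml3, 0.11 for Ctbp1 and 0.16 for Tle1 did not pass it. With 1 library left out, Tle1 passed the unadjusted threshold in 7 of 12 fits as deposited, failing without control 2, 5 or 6 or CKO 1 or 6.

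Among genes that act on ligands, Mib1, a ubiquitin ligase needed for ligand uptake, ran from 4.13 to 5.85 FPKM in controls and from 4.89 to 8.91 in CKOs, a log2 difference of 0.47 (limma, adjusted P = 0.0830), and of 0.28 after median-ratio scaling, again past the unadjusted threshold. The endocytic adaptor Epn2 had a log2 difference of 0.28. Among genes that mature or cut the receptor, the protease Furin had 0.30, with all CKOs (2.63 to 3.50 FPKM) above all controls (2.11 to 2.58 FPKM), the fucosyltransferase Pofut1 had 0.41, the gamma-secretase subunit Aph1b had 0.49 and the metalloprotease Adam17 had 0.30. The ubiquitin ligases Itch, Dtx4 and Dtx2 had 0.30, 0.50 and 0.48. Poglut1, a glucosyltransferase that modifies the receptors, was the remaining one, at 0.45, and is named outside the rule on named genes. All of the genes of this paragraph passed the unadjusted threshold as deposited and missed the adjusted one, with adjusted P from 0.0830 to 0.243. After median-ratio scaling all but Mib1 lost the unadjusted call, with log2 differences of 0.10 for Epn2, 0.12 for Furin, 0.24 for Pofut1, 0.33 for Aph1b, 0.12 for Adam17, 0.11 for Itch, 0.34 for Dtx4, 0.33 for Dtx2 and 0.28 for Poglut1. As deposited, and with 1 library left out, Mib1 and Furin kept the unadjusted call in 12 of 12 fits, Pofut1 in 11, Itch in 10, Aph1b in 8, Epn2 in 6, Adam17 and Dtx4 in 5, and Dtx2 and Poglut1 in 4. The 3 genes with no overlap, Maml3, Ctbp1 and Furin, are 3 of 51, beside 2.23% of all genes tested.

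Hes6 and Bhlhe40 encode bHLH factors related to the targets. Hes6, which counteracts Hes1, read 0.83, 0.25, 0.88, 1.02, 0.65 and 0.23 FPKM in controls and 1.37, 0.70, 0.80, 0.99, 1.41 and 1.76 FPKM in CKOs. CKOs 1, 5 and 6 lay above all controls, and the log2 difference was 0.87 ± 0.33 (SE, limma, adjusted P = 0.160) and 0.71 after median-ratio scaling, on 4 to 16 fragments per control library and 11 to 35 per CKO library. Bhlhe40 was the gene with a lower value at the unadjusted threshold, from 7.96 to 13.2 FPKM in controls and 5.62 to 13.7 FPKM in CKOs, a log2 difference of -0.43 ± 0.20 (SE, limma, adjusted P = 0.234) and of -0.62 after median-ratio scaling. Bhlhe40 lost the unadjusted call with the replicate block, without the trend, and without control 2, 4, 5 or 6 or CKO 1, 2, 5 or 6, where the log2 difference was between -0.43 and -0.33. Of the 8 genes below the filter, Dll3 and Hes7 were listed at 0 in all libraries, and Dlk1, Dlk2, Dner, Aph1c, Dtx1 and Hes5 read at most 0.197 FPKM.

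**Figure D4:**
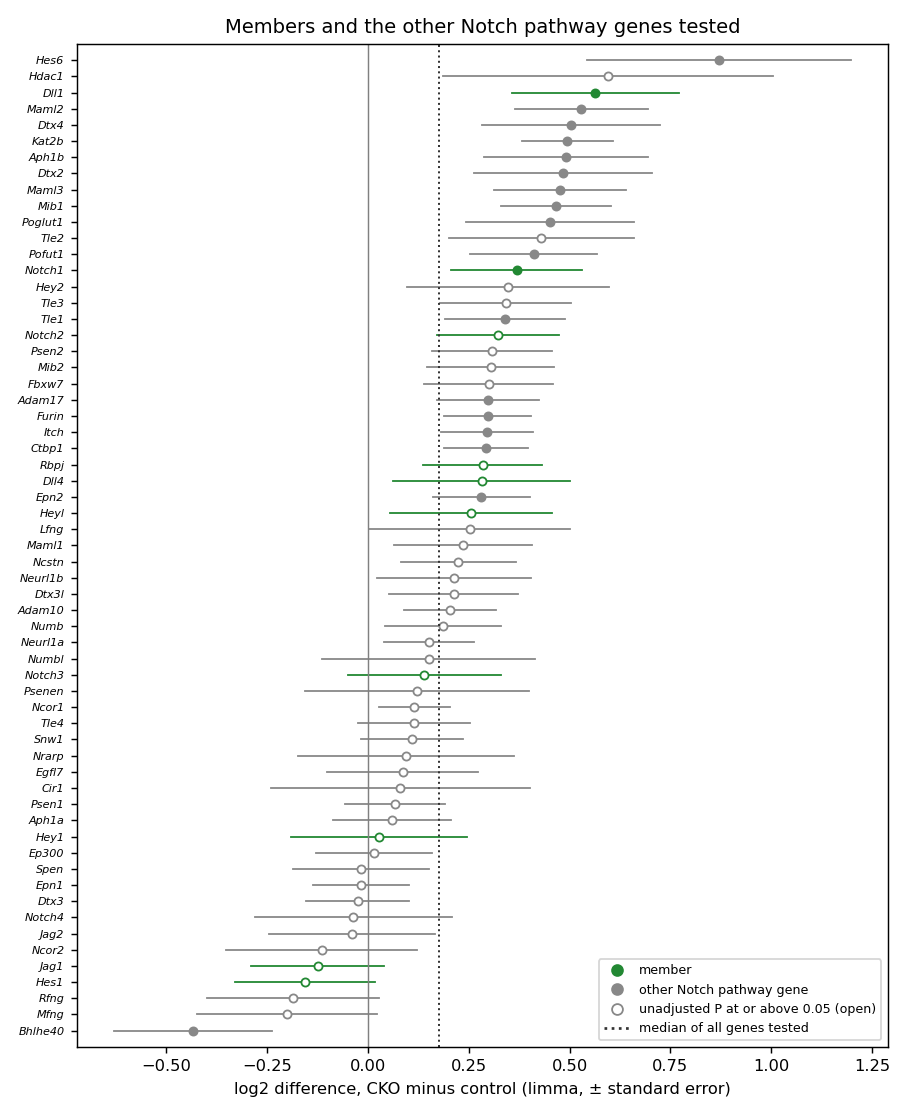
Log2 difference, CKO minus control, for the 10 members (green) and the other 51 Notch pathway genes tested (gray), as deposited, with ± 1 SE from limma; filled points have an unadjusted P below 0.05, open points do not, and the dotted line is the median of all genes, 0.18. Dll1 and Notch1 are the filled members, Hes1 and Jag1 lie left of 0, and the order is that of the FPKM as deposited, under which Notch3 and Hey1 lie above 0 and after either scaling below it.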

How the data were processed

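RNA from the tibialis anterior of 12 mice was sequenced by the authors after ribosomal RNA depletion (ScriptSeq Complete Gold). Reads were trimmed, aligned allowing few mismatches, and dropped if they mapped to several places. The submitters' processing notes name TopHat2 2.0.10, Cufflinks 2.1.1 and mm9; the annotation is not given in the sources used here. The deposited values are FPKM, fragments scaled by transcript length and by the mapped fragments of the library, 1 per gene symbol. The authors' own test used counts, which were not analysed here. Of 23950 rows per file, 27 held a date in place of a symbol and were left out.

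Controls and CKOs were compared with limma 3.58.1 (R 4.3.3, intensity trend, no block, two-sided) on log2(FPKM + 0.1), with Benjamini-Hochberg adjustment over the 12695 genes tested. A fold on the log2(FPKM + pseudocount) scale understates the change of low genes. P in the report is limma's unless an exact test is named, and the unadjusted threshold is 0.05. Relative depth was read from FPKM steps below 0.15, and whole fragments were recovered for 69.2% of genes tested, within 0.03 of a whole number. The depth in fragments is approximate and rests on transcript lengths of another annotation (GENCODE vM21). Counting CVs cover counting error only. Ratios and neighbors in level were compared by exact permutation tests. Code was tested on simulated data.

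Alternatives tried were quantile normalization, median-ratio scaling, sample weights, no trend, a replicate block, a larger pseudocount (1), a stricter filter (1 FPKM), no filter, and each library left out. For the ratios and neighbor pairs a smaller pseudocount (0.01) was also tried. Named were all members, Smyd1, and of the further pathway genes those past the adjusted threshold plus up to 15 with the smallest unadjusted P below 0.05. The members and lists were chosen with earlier results of these data known. Samples are separate mice; same-numbered mice are not paired by the labels.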

Additional observations from a re-analysis of the deposited data

Results flagged for a closer look

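Among 54 groups of 6 libraries checked for an outlying library, 2 were marked, and chance alone marks about 1 in 20 groups. Mib1 in CKO 2 read 4.89 FPKM, below the other CKOs at 7.19 to 8.91 FPKM. Ctbp1 in CKO 5 read 21.7 FPKM, above the other CKOs at 14.3 to 16.2 FPKM.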

How the results depend on the processing

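Dll1 kept a positive difference under every alternative that tested it, with an adjusted P from 0.0910 to 0.585. It lost the unadjusted call with either scaling and with sample weights (limma, unadjusted P = 0.0706 with the weights). Notch1 also lost the unadjusted call with sample weights, at a log2 difference of 0.27 (limma, unadjusted P = 0.105). The counts below have the order all genes, then members, then further pathway genes where they moved. Over all genes at the adjusted threshold, higher calls numbered 170 with no filter, 97 with median-ratio scaling, 101 with quantile normalization and 1400 with sample weights, and lower calls 90, 68 and 115 with the last 3 of these and 22 with voom on whole fragments (chosen after seeing the data). At the unadjusted threshold, higher calls were 841 with median-ratio scaling, 810 with quantile normalization and 3704 with sample weights, and lower calls 944 and 837 with these scalings. For members, sample weights gave 1 higher adjusted call (Notch2, adjusted P = 0.0490) and 1 unadjusted, the filter at 1 FPKM gave 1 unadjusted, since Dll1 was no longer tested, and both scalings gave 0. For the further pathway genes, higher adjusted calls were 0 with either scaling, without the trend and with voom, and 4 with sample weights, and higher unadjusted calls were 10 with the filter at 1 FPKM, 4 and 3 with the scalings and 9 with voom. Lower unadjusted calls there were 0 with the replicate block and 0 without the trend. With 1 library left out, calls over all genes ran from 84 to 1067 (adjusted, higher), 18 to 69 (adjusted, lower), 1738 to 3428 and 196 to 320 (unadjusted), those of members from 1 to 3 (unadjusted, higher) and 0 to 1 (lower), and those of the further genes from 0 to 4 (adjusted, higher), 9 to 18 and 0 to 1 (unadjusted).

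Reversed values were those of Notch3 (-0.034 and -0.066) and Hey1 (-0.14 and -0.18) under the 2 scalings, Hey1 with 1 library left out (lowest -0.093, highest 0.13), and the ratio of Notch1 to Notch2 with 1 library left out (lowest -0.072, highest 0.20). In CKO libraries Hey1 over Notch2 was -0.26 and Dll4 over Notch1 -0.065 on the log2 scale. The cause was not tested. The correlation of deviations of same-numbered libraries was from -0.0861 to 0.164, and 2 of 6 libraries were closest to their own number, so the labels' numbers were not taken as pairs. With the replicate block 3 members passed the unadjusted threshold, beside 2442 of 12695 genes that were higher at it. The adjusted P was then 0.140 for Dll1, 0.230 for Notch1 and 0.223 for Notch2. Among the 8 members with whole fragments, depth limits Dll1 and Hey1 most, which rest on the fewest.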
